A study of Mus musculus with 7 samples.

Results

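Late fetal mouse lung epithelium at E18.5 was compared with the earlier epithelium of E13.5 and E15.5, over 4 of the 7 libraries of a series that runs from E13.5 to the adult. The early side was the mean log2(value + 1) of the E13.5 and E15.5 libraries, 1 each, and the late side was the mean of the 2 E18.5 libraries. All 4 came from C57BL/6 mice with no genetic change or treatment given in the labels. Lung tissue was digested with collagenase, Dispase II and DNase I, and live cells were sorted as Epcam-positive and negative for CD31, CD45, Ter119 and CD146, which removes endothelial, blood and pericyte-like cells. Polyadenylated RNA was then read as 3' tags (SAGE sequencing, in which a short tag near the end of a transcript is counted). The labels do not say whether the E18.5 libraries came from separate animals or litters, nor how many embryos were pooled, so the spread between them may be technical.

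Each gene has a single value per library, a tag count divided by a factor common to the library. A single read was worth 0.236 at E13.5, 0.359 at E15.5 and 0.385 and 0.377 at E18.5, from 2559927 to 3895740 reads per library. Values below are always given in the order E13.5, E15.5, E18.5 replicate 1 and E18.5 replicate 2. A log2 change is E18.5 minus the early mean on the log2(value + 1) scale with its standard error, unless another pair of stages is named, and it understates the change of genes with few reads. Of 21121 genes listed, 12964 passed a filter on low counts and were tested.

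Between these stages the distal lung passes from a branching tube, whose tips hold dividing progenitors, to sacs lined by 2 kinds of alveolar cell. Flat alveolar type 1 cells carry gas exchange. Cuboidal alveolar type 2 cells make surfactant, a mixture of phospholipid and surfactant proteins that is stored in lamellar bodies and lowers surface tension at the first breath. Glucocorticoid from the fetal adrenal, falling proliferation and the switch from fluid secretion to sodium absorption are the textbook features of this period. In a bulk sort, more cells of a type and more RNA per cell cannot be told apart, and that holds for every change described here.

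At E18.5, 2043 genes were higher than the early mean (15.8% of those tested) and 1736 were lower (13.4%), by limma at a Benjamini-Hochberg adjusted p under 0.05. Of these, 731 and 720 changed at least 4-fold. Scaled without Eef1a1 and the ribosomal proteins, the split was 1622 higher and 2458 lower. The ribosomal share of reads differed between stages. Eef1a1 took 5.473%, 5.963%, 5.925% and 7.141% of reads, and so differed between the E18.5 replicates too. Without the E13.5 library 959 and 644 passed. Without either E18.5 library, or either adult P56 library that also sets the error, limma called 0 (2106 to 2479 higher and 1619 to 2227 lower at an unadjusted p under 0.05), whereas edgeR called 2073 to 2569 and 1469 to 1965. Both E18.5 libraries lay outside the E13.5 and E15.5 values, on the same side, for 8161 of the 12964 genes (62.95%), so that separation alone marks little. Between E15.5 and E13.5, each a single library whose error is borrowed from the replicated stages, 306 genes were higher (2.36%) and 27 lower (0.208%). These 2 counts moved widely, to 931 and 908 without the filter on low counts, to 848 and 310 by edgeR without E18.5 replicate 1, to 845 and 307 without replicate 2, and to 0 by limma without any 1 of the E18.5 and P56 libraries (831 to 1216 higher and 292 to 597 lower at an unadjusted p under 0.05). Between E18.5 and E15.5, 785 were higher (6.06%) and 581 lower (4.48%), and limma again called 0 without any 1 of those libraries (1284 to 1700 and 984 to 1645 at an unadjusted p under 0.05), against 737 to 1343 and 682 to 1346 by edgeR. The 3 comparisons share libraries and are not independent of each other.

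To say how far E15.5 had gone, its level was placed on a scale where 0 is the E13.5 level and 1 is the mean E18.5 level, for genes whose E13.5 and E18.5 levels differ by at least 1 on the log2 scale. The place rests on 1 E15.5 library and carries no test. Embryonic day 15.5 is 2 days into an interval of 5 days, which is 0.4 of it. The place enters the early mean too, so a gene that had finished by E15.5 is less easily called than one that had not begun. Among the 1879 genes called higher that have a place, the median was 0.401, with quartiles of 0.202 and 0.583. At E15.5, 179 of them were mostly changed (a place of 0.75 or more, 9.53%), 1125 were partly changed (0.25 to 0.75, 59.87%), 502 had not yet changed (within 0.25 of the E13.5 level, 26.72%), and 73 had moved the other way (3.89%). Among the 1632 genes called lower the median was 0.251, with quartiles of 0.06 and 0.406. Of those, 30 were mostly changed at E15.5 (1.84%), 789 partly (48.35%), 707 not yet (43.32%), and 106 had moved the other way (6.5%). The distribution of the falling genes therefore lay closer to the E13.5 level than that of the rising genes.

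**Figure D1:**
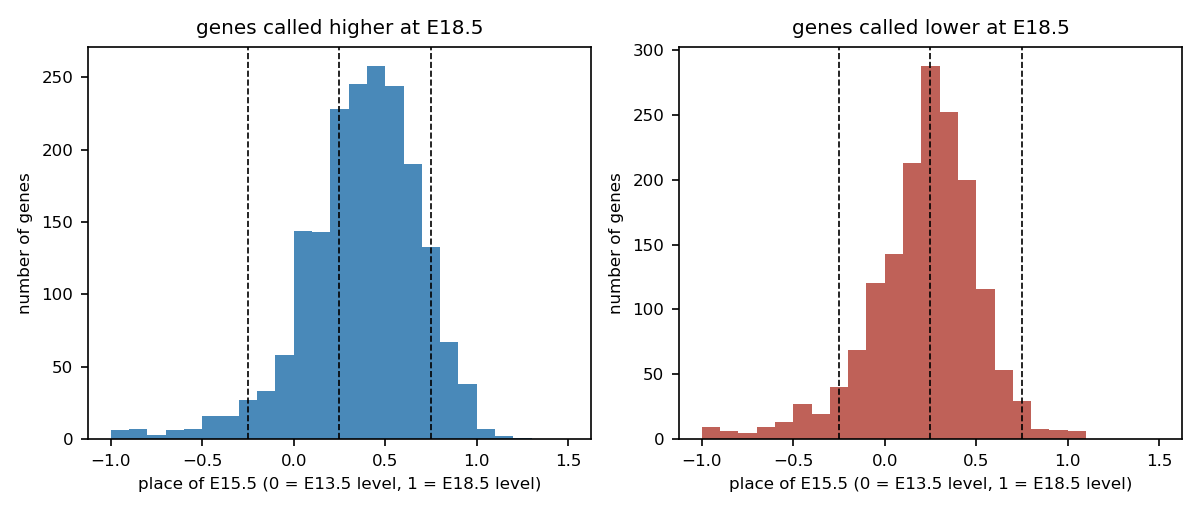
Number of genes (y axis) by the place of E15.5 between the E13.5 level (0) and the mean E18.5 level (1) on the x axis, for genes called higher (left, 1879) and lower (right, 1632) at E18.5. Dashed lines mark the class limits, values under −1 (5 and 8 genes) are drawn in the first bar, and the peak of the falling genes sits further left than that of the rising genes.

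Markers of alveolar type 1 cells rose with few exceptions. Of 25 tested, 23 rose and 1 fell, with a median log2 change of 3.55 against 0.027 over all genes tested. Between E13.5 and E15.5, 12 passed as higher, 19 passed between E15.5 and E18.5, and 10 did so at both steps. Clic5, of the chloride intracellular channel family (chr17:44188584-44280172 in GRCm38), stood at 0.945, 333, 2745 and 3089, a log2 change of 6.84 ± 0.18 (adjusted p = 1.96e-06). Its step from E13.5 to E15.5 was the larger part, at 7.42 ± 0.25 (adjusted p = 8.14e-05). Ager, the receptor for advanced glycation end products and a classical type 1 marker, stood at 5.67, 91.5, 694 and 868, a log2 change of 4.97 ± 0.20 (adjusted p = 1.20e-05). The caveolin gene Cav1 stood at 0.945, 20.8, 181 and 149 and the membrane protein gene Emp2 at 6.38, 120.2, 843 and 1073, both about midway at E15.5 (places of 0.54 and 0.58). In these 4 genes the E15.5 library was above E13.5 and far below both E18.5 libraries.

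In 5 of the rising type 1 genes E15.5 lay within 0.25 of the E13.5 level. Rtkn2, used as a type 1 marker (chr10:67979570-68059740), stood at 13.5, 7.89, 131 and 165 (log2 change 3.70 ± 0.27, adjusted p = 0.000156), and its E15.5 value was below that at E13.5 without passing the test (adjusted p = 0.485). Vegfa, the growth factor for endothelium that type 1 cells secrete, stood at 13.9, 27.3, 408 and 369, a place of 0.20. The large scaffold protein gene Ahnak stood at 29.5, 23.3, 191 and 183 and Limch1, an actomyosin regulator, at 93.6, 105, 291 and 258. Aqp5, the water channel of type 1 cells, had a place of 0.25, although its first step passed the test (adjusted p = 0.00508). At the other end, the tight junction gene Cldn18 was already near its late level at E15.5, with 1962, 8394, 11888 and 13486 and a place of 0.78. The rise of Cldn18 from E13.5 to E15.5 passed the test (adjusted p = 0.00391), and that after E15.5 did not (adjusted p = 0.0951). Hopx, a homeodomain factor of type 1 cells, stood at 4.49, 37.7, 89.3 and 40.3, and its E15.5 value was just under the lower of the 2 late values. Igfbp2, the member of the list that fell, stood at 31.2, 22.96, 3.08 and 2.26 (adjusted p = 0.00217).

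Of 22 tested alveolar type 2 markers 20 rose and 1 fell, with a median log2 change of 4.15. Between E13.5 and E15.5, 18 passed as higher, 19 passed between E15.5 and E18.5, and 16 did so at both steps. The surfactant protein genes did not share a course. Sftpc (chr14:70520949-70524081) stood at 29.5, 1260, 3953 and 3365, so its E15.5 value was nearer to E18.5 (place 0.78, E15.5 against E13.5 adjusted p = 0.000114). Sftpb stood at 41.6, 601, 4067 and 4162 (place 0.58) and Sftpa1 at 8.98, 65.7, 471 and 406 (place 0.50). Sftpd (chr14:41172214-41185149), a collectin of innate defence, stood at 0.709, 3.23, 354 and 353, with most of its rise after E15.5 (log2 change from E15.5 6.39 ± 0.22, adjusted p = 2.36e-05). By place at E15.5 the order was Sftpc, Sftpb, Sftpa1, Sftpd. The first step of Sftpd passed the test too (adjusted p = 0.0472), on 3 reads at E13.5 and 9 at E15.5.

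The lipid transporter gene Abca3 stood at 6.38, 81.8, 289.9 and 341 (log2 change 3.67 ± 0.20, adjusted p = 4.00e-05), and Lamp3, a lamellar body membrane protein, at 0.473, 21.5, 116 and 109. Napsa, the protease that processes surfactant protein precursors, stood at 2.13, 69.6, 323 and 406, and Ctsh, a cathepsin with the same substrate, at 13.5, 261, 911 and 825. Lpcat1, the acyltransferase that makes dipalmitoyl phosphatidylcholine, stood at 49.6, 232, 629 and 709. The phosphate transporter gene Slc34a2 rose from no read at E13.5, with 0, 24.8, 493 and 549. In all 6 the places lay between 0.52 and 0.71, and both steps passed the test. Of the 19 tested genes for surfactant and lamellar bodies 14 rose and none fell. Adgrf5, the receptor that limits the surfactant pool, is listed under that symbol with 0.473, 16.9, 42.4 and 37.7 and again under its older symbol Gpr116 with 3.54, 92.6, 209 and 219, so its reads are split.

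Among the other type 2 markers Chil1, a chitinase-like protein, stood at 0, 0.359, 123 and 137 and Lyz2, a lysozyme, at 0, 0.718, 68.9 and 70.5. Cxcl15, a lung chemokine, stood at 14.18, 47.7, 823 and 897, a place of 0.29, with a first step that passed (adjusted p = 0.0141). Lyz1 and Lyz2 are close copies, and their tags may not be fully separated. Etv5, a target of FGF signalling in the tips and a factor kept by type 2 cells, fell, with 143, 139, 75.8 and 64.0 (adjusted p = 0.00971). Egfl6 was highest at E15.5, with 32.8, 156, 90.9 and 74.98, and was not called between E18.5 and the early mean (adjusted p = 0.551).

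**Figure D2:**
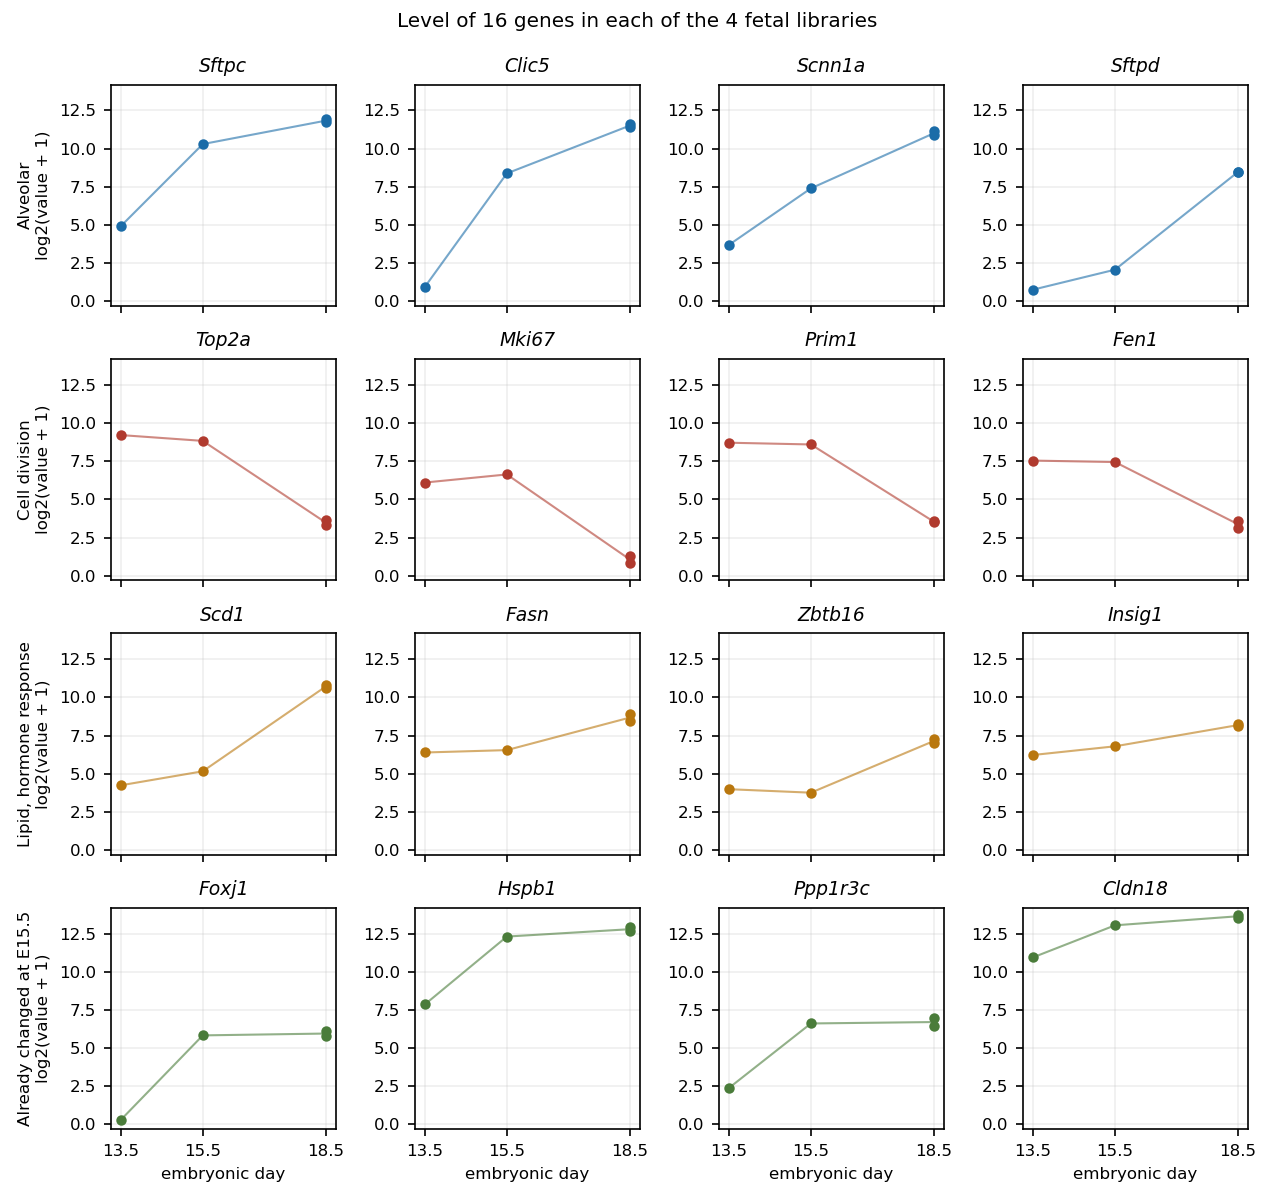
Level on the log2(value + 1) scale (y axis) against embryonic day (x axis) of 16 genes chosen from the text, where each point is a library and the line joins the E18.5 mean to the earlier libraries. The rows show alveolar genes, which climb at both steps or, for Sftpd, late; division genes, which fall only after E15.5; lipid and hormone genes, which rise mainly after E15.5; and genes at or near their late level at E15.5.

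Genes for salt and water transport rose in 11 of 23 and fell in none (median log2 change 1.11). All 3 subunits of the epithelial sodium channel rose. Scnn1a (chr6:125320659-125344943) stood at 12.1, 168, 1875 and 2260 (log2 change 5.45 ± 0.24, adjusted p = 1.76e-05) and had passed the test by E15.5 (adjusted p = 0.00214). Scnn1g stood at 4.73, 11.1, 87.4 and 101 and Scnn1b at 0, 0, 14.24 and 15.1, without a read before E18.5, and neither passed between E13.5 and E15.5 (adjusted p = 0.319 and adjusted p = 1.0). The difference in timing between subunits was not tested, and Scnn1b has too few reads to show it. Atp1b1, the beta subunit of the sodium pump, stood at 379, 2937, 8063 and 11327. The water channel gene Aqp1 stood at 0, 7.18, 88.9 and 139.8. The chloride channel gene Cftr (70.7, 81.1, 105 and 104, adjusted p = 0.114) and the chloride loading transporter gene Slc12a2 (52.5, 103, 102 and 101, adjusted p = 0.108), which drive fetal fluid secretion, were not called in either direction.

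Of 34 tested genes for fatty acid and phospholipid synthesis 23 rose and 2 fell, with a median log2 change of 1.47. Between E13.5 and E15.5, 4 were higher (13 at an unadjusted p under 0.05), and between E15.5 and E18.5, 15 were. The median place of the risers was 0.394, close to the 0.401 of all rising genes. Scd1, the desaturase that makes monounsaturated fatty acids (chr19:44394455-44407879), stood at 17.96, 34.8, 1577 and 1770, a log2 change of 6.00 ± 0.17 (adjusted p = 2.96e-06), and the difference between E15.5 and E13.5 did not pass the test (adjusted p = 0.130). Fasn, the fatty acid synthase, stood at 82.9, 92.6, 343 and 484 (place 0.07). In phosphatidylcholine synthesis, choline kinase, Chka, stood at 30.0, 82.9, 225 and 251, and the rate-limiting enzyme gene Pcyt1a at 5.20, 19.4, 30.0 and 30.1 (places of 0.49 and 0.74). Chka passed at the first step (adjusted p = 0.0418) and Pcyt1a did not (adjusted p = 0.0808). Gpam, the first acyltransferase of glycerolipid synthesis, stood at 1.89, 11.5, 48.9 and 59.2. Elovl6, which elongates palmitate, and the desaturase Fads2 were the members that fell, with 40.4, 4.31, 0 and 0 and 6.38, 3.59, 0.385 and 1.13. Scd1 and Scd2 are close copies, and Scd2 also rose, with 2711, 3702, 8787 and 9545.

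Of 23 tested cholesterol genes 9 rose and none fell, and 8 were higher between E15.5 and E18.5. Between E13.5 and E15.5 limma called none higher (1 at an unadjusted p under 0.05, 0 by edgeR) and 1 lower, with 6 lower at an unadjusted p under 0.05 and a median change of −0.377 over the list. Insig1, the sterol-responsive brake on the pathway, stood at 74.0, 110.2, 304 and 276 (log2 change 1.67 ± 0.18, adjusted p = 0.000826, place 0.29), and the sterol regulator Srebf2 at 235, 181, 423 and 484. Among the enzymes, Fdps stood at 35.9, 19.7, 68.5 and 75.4 and was lower at E15.5 than at E13.5 without passing the test (adjusted p = 0.298). Cyp51, which had fallen between E13.5 and E15.5 (adjusted p = 0.0449), stood at 333, 125, 194 and 223 and was not called over the whole comparison (adjusted p = 0.932). Abca1, the cholesterol exporter, rose with 0.236, 3.59, 48.5 and 43.3.

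Lysosome genes rose in 18 of 32 and fell in none, mostly as a gradual change with a median place of 0.418. Besides Ctsh, the cathepsin gene Ctsc stood at 8.03, 44.9, 142 and 121 and the peptidase gene Tpp1 at 203, 395, 791 and 1035. Only 2 of the list had passed by E15.5, and these were Ctsh and Ctsc. Glycogen genes rose in 7 of 17. Ppp1r3c, which targets phosphatase to glycogen, was the single member that passed by E15.5 (adjusted p = 0.00196). It stood at 4.25, 96.9, 84.3 and 127. Between E15.5 and E18.5 none of the 17 passed (for Ppp1r3c adjusted p = 0.882). The glycogen phosphorylase gene Pygl stood at 12.1, 39.8, 43.1 and 81.4. Nutrient carriers rose in 5 of 18 and fell in 4 (27.8% and 22.2%, against 15.8% and 13.4% of all genes). Fatty acid oxidation rose in 6 of 19 and fell in none.

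Glucocorticoid response genes rose in 12 of 16 and fell in 1, with a median log2 change of 1.77. Only 2 passed between E13.5 and E15.5 and 9 between E15.5 and E18.5. Zbtb16, a zinc finger factor strongly induced by glucocorticoid (chr9:48654297-48836222), stood at 14.9, 12.6, 155 and 127, a log2 change of 3.27 ± 0.23 (adjusted p = 0.000154). Its E15.5 value was no higher than that at E13.5, and the step after E15.5 passed (adjusted p = 0.00114). Tsc22d3, which encodes the glucocorticoid-induced leucine zipper, stood at 95.5, 213, 695 and 909.9, and the feedback phosphatase gene Dusp1 at 8.27, 48.8, 247 and 235. The receptor gene Nr3c1 itself stood at 28.1, 52.7, 63.9 and 68.9 (adjusted p = 0.0438). Sgk1 and Fkbp5, both common reporters of the hormone, were not called, with 2.60, 3.95, 8.09 and 6.03 (adjusted p = 0.112) and 60.5, 38.8, 63.5 and 83.3 (adjusted p = 0.152). Several of the risers, Dusp1 and Nfkbia among them, also answer to other stimuli.

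Airway cell types moved in different ways. The basal cell list cannot speak for basal cells, since the defining genes Trp63, Krt5, Krt14, Krt17 and Ngfr had 0 to 5 reads in every library and were not tested. Of its 4 tested genes Krt15, Aqp3 and Icam1 rose, and Icam1, with 792, 1291, 5150 and 5426, made up nearly all of the summed level. Of 10 tested club cell genes 6 rose. Scgb1a1, the club cell secretoglobin, had reached only 0, 0.359, 15.02 and 14.7, and Cyp2f2, a cytochrome of club cells, 0, 11.1, 57.8 and 61.0. Of 16 tested ciliated cell genes 7 rose, 1 fell and 2 passed between E13.5 and E15.5. Foxj1, the regulator of motile cilia (chr11:116330704-116335399), stood at 0.236, 56.0, 55.1 and 67.4, so it was at its late level by E15.5 (E15.5 against E13.5 adjusted p = 0.000709, E18.5 against E15.5 adjusted p = 0.843). The dynein heavy chain gene Dnah11 followed the same course with 3.07, 33.0, 32.3 and 36.9. Another dynein gene, Dnah9, was partway at E15.5, with 0, 2.51, 9.24 and 24.1. Tubb4a, the member that fell, stood at 126, 27.3, 1.54 and 0.754. Its close relative Tubb4b, the tubulin of cilia, stood at 42.3, 65.3, 44.3 and 47.8 and was not called (adjusted p = 0.601).

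Neuroendocrine genes fell in 4 of 7 and rose in none. Uchl1, a ubiquitin hydrolase of neuroendocrine cells (chr5:66676091-66687234), stood at 1624, 851, 28.1 and 46.0, a log2 change of -4.99 ± 0.60 (adjusted p = 0.00121). The zinc finger gene Insm1 stood at 23.4, 1.79, 0 and 0, a place of 0.68, although its first step did not pass the test (adjusted p = 0.0945). The peptide gene Calca stood at 2.13, 1.44, 3.85 and 0 and was not called (adjusted p = 0.793). Genes of the distal tip fell in 7 of 16 and rose in 1. Sox9 stood at 112, 137, 40.8 and 59.9, Hmga2 at 66.9, 13.3, 3.85 and 2.26 and Sox11 at 56.5, 18.3, 0.770 and 4.90. Sox9 was not lower at E15.5 than at E13.5, while Hmga2 had a place of 0.55 (first step adjusted p = 0.164). Id2 (33.8, 26.2, 22.7 and 13.6, adjusted p = 0.126) and Bmp4 (5.20, 14.7, 15.8 and 17.7, adjusted p = 0.0767), both high in tips, were not called. The riser was the FGF receptor gene Fgfr2 with 40.2, 92.9, 118 and 149.6.

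Among 34 tested lung transcription factors 16 rose and 6 fell. Of the C/EBP family, 3 genes rose, with Cebpa at 2.60, 12.6, 36.6 and 43.7, Cebpb at 53.6, 404, 760.4 and 654 and Cebpd at 0, 11.5, 110.1 and 83.6. Each passed at the first step. Nkx2-1, the lung lineage factor, stood at 502, 1279, 1459 and 1969 (log2 change 1.08 ± 0.20, adjusted p = 0.00740), with most of its difference present at E15.5 (place 0.77) but no call at that step (adjusted p = 0.0624). Elf5, an ETS factor, stood at 40.2, 207, 350.4 and 348. Klf4 stood at 56.5, 79.3, 220.2 and 248 and Tfcp2l1, a grainyhead family factor, at 0.709, 8.61, 71.2 and 88.9. Foxp2 fell with 158, 133, 55.4 and 64.8. Foxa2, Gata6 and Sox2 were not called, with 3.78, 7.89, 6.16 and 11.3 (adjusted p = 0.379), 9.22, 19.02, 16.9 and 20.3 (adjusted p = 0.272) and 3.31, 0.359, 0.385 and 1.13 (adjusted p = 0.547).

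Cell division genes fell nearly as a whole, and E15.5 still stood close to E13.5. Of 49 tested mitosis genes 46 fell and none rose (median log2 change −3.66), and of 36 DNA replication genes 33 fell and none rose (−3.06). Between E13.5 and E15.5 limma called 0 of these genes, as did edgeR, and 1 mitosis gene and 0 replication genes had an unadjusted p under 0.05. The median changes at that step were −0.016 and −0.154. Between E15.5 and E18.5, 42 and 27 passed. The median place of the falling genes was −0.010 for mitosis and 0.068 for replication. Prim1, the DNA primase subunit (chr10:128015168-128030037), stood at 418, 386, 10.8 and 10.5, a log2 change of -5.11 ± 0.22 (adjusted p = 1.63e-05). Fen1, the flap endonuclease of lagging strand synthesis, stood at 185, 173, 11.2 and 7.91, and the helicase subunit gene Mcm3 at 69.9, 34.8, 0.385 and 0.377. Mki67, the proliferation marker (chr7:135689784-135716361), stood at 67.8, 98.3, 0.770 and 1.507, with its highest value at E15.5. Tpx2, a spindle assembly factor, stood at 75.9, 73.9, 0 and 0.754 and Cenpe, a kinetochore motor, at 66.2, 33.4, 0 and 0. In each of these genes both E18.5 values were far below both earlier ones, and Cenpe had no read at E18.5.

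A few division genes departed from that course. Aurka, the mitotic kinase, stood at 1.89, 6.10, 0 and 0, highest at E15.5. Ckap5, which binds growing microtubules, had gone partway at E15.5, with 163, 104, 45.8 and 76.9 (place 0.45). Prc1 (24.1, 22.2, 14.24 and 10.9, adjusted p = 0.0772), Pttg1 (12.3, 3.95, 5.78 and 3.01, adjusted p = 0.282) and Mybl2 (4.73, 4.66, 0 and 1.507, adjusted p = 0.0697) were the mitosis genes not called. In replication these were Rfc3 (4.25, 3.95, 1.93 and 0.377, adjusted p = 0.112), Prim2 (25.5, 20.1, 3.08 and 26, adjusted p = 0.321) and Rrm2 (5.91, 11.8, 2.69 and 1.13, adjusted p = 0.0713). Of 23 regulators of the G1 phase 5 rose and 6 fell (21.7% and 26.1%, against 15.8% and 13.4% of all genes). The inhibitor gene Cdkn1a rose with 76.1, 272, 1002 and 816 and passed at the first step (adjusted p = 0.0139). Cdkn2b rose later, with 6.85, 13.6, 93.9 and 85.1. The cyclin genes Ccnd1 (98.5, 30.5, 7.32 and 6.03) and Ccnd2 (199, 111, 42.0 and 42.6) and the kinase gene Cdk4 (121, 68.2, 21.2 and 20.0) fell, each with a place between 0.33 and 0.45. Cdkn1c, an imprinted inhibitor, also fell, with 565, 692, 314 and 261.

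Because the division genes fell together, their promoters are shown, for the top pair of mitosis genes and of replication genes by adjusted p with a single promoter in the table and no overlap with the annotated transcript. The sequences are the 200 bases before the transcript start, from RefSeq in GRCm38.p6, written 5′ to 3′ on the gene's strand. Capitals mark the CCAAT box of NF-Y, the letters TTTGAA of the cell cycle homology region, and the letters GCGGGAA read by E2F factors, on either strand. All of these are textbook elements of cell cycle promoters.
Top2a (chr11:99024190-99024389, minus strand): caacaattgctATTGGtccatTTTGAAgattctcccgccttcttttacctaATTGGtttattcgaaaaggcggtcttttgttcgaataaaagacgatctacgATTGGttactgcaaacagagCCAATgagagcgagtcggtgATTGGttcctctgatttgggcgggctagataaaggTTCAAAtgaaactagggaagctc
Mki67 (chr7:135716380-135716579, minus strand): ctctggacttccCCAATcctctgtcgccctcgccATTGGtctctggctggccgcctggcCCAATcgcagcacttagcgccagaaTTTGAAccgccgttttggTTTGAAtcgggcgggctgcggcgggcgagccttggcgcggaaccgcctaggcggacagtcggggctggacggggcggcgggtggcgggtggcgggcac
Pola1 (chrX:93632156-93632355, minus strand): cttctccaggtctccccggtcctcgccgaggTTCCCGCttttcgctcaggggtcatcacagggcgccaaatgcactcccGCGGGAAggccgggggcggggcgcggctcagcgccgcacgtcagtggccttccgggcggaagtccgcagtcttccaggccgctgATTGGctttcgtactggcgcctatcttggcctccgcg
Mcm3 (chr1:20820313-20820512, minus strand): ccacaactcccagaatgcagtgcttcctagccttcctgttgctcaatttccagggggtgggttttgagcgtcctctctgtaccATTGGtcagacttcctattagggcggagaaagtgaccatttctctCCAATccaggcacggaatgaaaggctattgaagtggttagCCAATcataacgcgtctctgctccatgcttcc
In these stretches Top2a holds 5 matches to CCAAT and 2 to TTTGAA, Mki67 3 and 2, Pola1 1 match to CCAAT and 2 to GCGGGAA, and Mcm3 3 matches to CCAAT alone.

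Over the full window of 300 bases, from 250 before to 50 after the start, 42 of the 49 tested mitosis genes had a promoter in the table, with 45 promoters. TTTGAA was in 77.8% of these promoters on either strand, against 17.9% of all 32851 promoters. CCAAT was in 75.6%, against 37.4%, and 21 of the 42 genes had 2 or more copies. GCGGGAA was in 2.2%, against 4.6%. Alveolar type 1 genes, 21 of 25 matched with 29 promoters, held TTTGAA in 20.7%, CCAAT in 27.6% and GCGGGAA in 17.2%. GGAATG, a motif read by the TEAD factors, was in 11.1% of mitosis and 3.4% of type 1 promoters, against 14.7% of all. The searches for replication and alveolar type 2 genes are void as shares, since only 27 of 36 and 17 of 22 of the genes had a promoter, under the 80% set for such a check. Of all genes tested 74.7% had one. A match is a string of letters and was not tested as a binding site.

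Of 26 tested clustered histones 11 fell, 15 were not called and none rose, though these genes are close copies whose tags may be misassigned, and most have no polyadenylated tail for a 3' tag. Of 30 chromatin genes 19 fell and 1 rose. The polycomb methyltransferase gene Ezh2 (chr6:47530139-47595341) stood at 627, 383, 53.1 and 37.3, a log2 change of -3.43 ± 0.25 (adjusted p = 0.000161). Its paralogue Ezh1 (chr11:101191115-101226463), the riser of the list, stood at 39.2, 35.9, 150.2 and 180.1, a log2 change of 2.10 ± 0.21 (adjusted p = 0.000585). Neither had passed by E15.5 (adjusted p = 0.438 and adjusted p = 0.910). The maintenance methyltransferase gene Dnmt1 stood at 57.7, 62.1, 12.7 and 11.7 and its partner Uhrf1 at 32.4, 20.1, 0.385 and 0. Hmga1 stood at 3425, 2098, 579 and 666.

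Splicing factors fell in 20 of 31, with Hnrnpc at 1557, 1066, 355 and 305 and the sm-core gene Snrpd1 at 33.6, 15.8, 3.08 and 2.64. Between E13.5 and E15.5 limma and edgeR called 0 of them (1 at an unadjusted p under 0.05), and 13 of the fallers had a place between 0.25 and 0.75. Ribosome biogenesis genes fell in 14 of 30. Dkc1, the pseudouridine synthase dyskerin, stood at 354, 225, 53.5 and 47.8, Nop56 at 1126, 624, 167 and 146 and nucleolin, Ncl, at 563, 234, 112 and 87.4. Nop16 was the single gene of this list that passed by E15.5, with 54.6, 8.97, 6.16 and 5.27 (adjusted p = 0.0418). Cytosolic ribosomal proteins fell in 25 of 81 and their share of all reads went from 17.8% and 15.9% to 11.3% and 9.24%. At the second step limma called 0 of them lower, against 21 at an unadjusted p under 0.05 and 2 by edgeR. At the first step both tools called 0 in either direction, and the 1 gene with an unadjusted p under 0.05 was higher, not lower. Rps2 stood at 13334, 8751, 4541 and 5228 and Rpsa at 9390, 7630, 4544 and 4826, while Rpl8 kept 17870, 18953, 16497 and 19512 (adjusted p = 0.883). Translation factors fell in 11 of 25, and Eif1, which rose, was lowest at E15.5 with 82.7, 46.6, 105 and 148. The list as a whole took 6.231%, 6.477%, 6.322% and 7.504% of reads, and Eef1a1 alone took 5.473%, 5.963%, 5.925% and 7.141%.

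Of 73 tested respiratory chain genes 12 fell (16.4% against 13.4% of all genes) and 1 rose. Glycolysis gave 3 risers and 4 fallers of 20. The monocarboxylate exporter gene Slc16a3 stood at 69.5, 39.8, 7.70 and 6.41, and the aldolase gene Aldoa rose modestly with 1787, 1371, 2363 and 2688. Hypoxia response genes rose in 7 of 17, with Vegfa described above and Epas1 at 0.236, 0.359, 4.62 and 4.14. Proteasome genes fell in 10 of 36. The exception was the immunoproteasome gene Psmb8, which stood at 1.65, 52.4, 87.8 and 162 and was mostly risen at E15.5. In the endoplasmic reticulum list 9 of 35 fell and 3 rose. The disulfide isomerase gene Pdia3 stood at 5298, 4103, 2016 and 1679, and Hspa5, the main chaperone, at 2429, 1367, 977 and 445. Xbp1, Herpud1 and Dnajb9 were the 3 risers, with Herpud1 at 28.4, 40.9, 122 and 104.

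**Figure D3:**
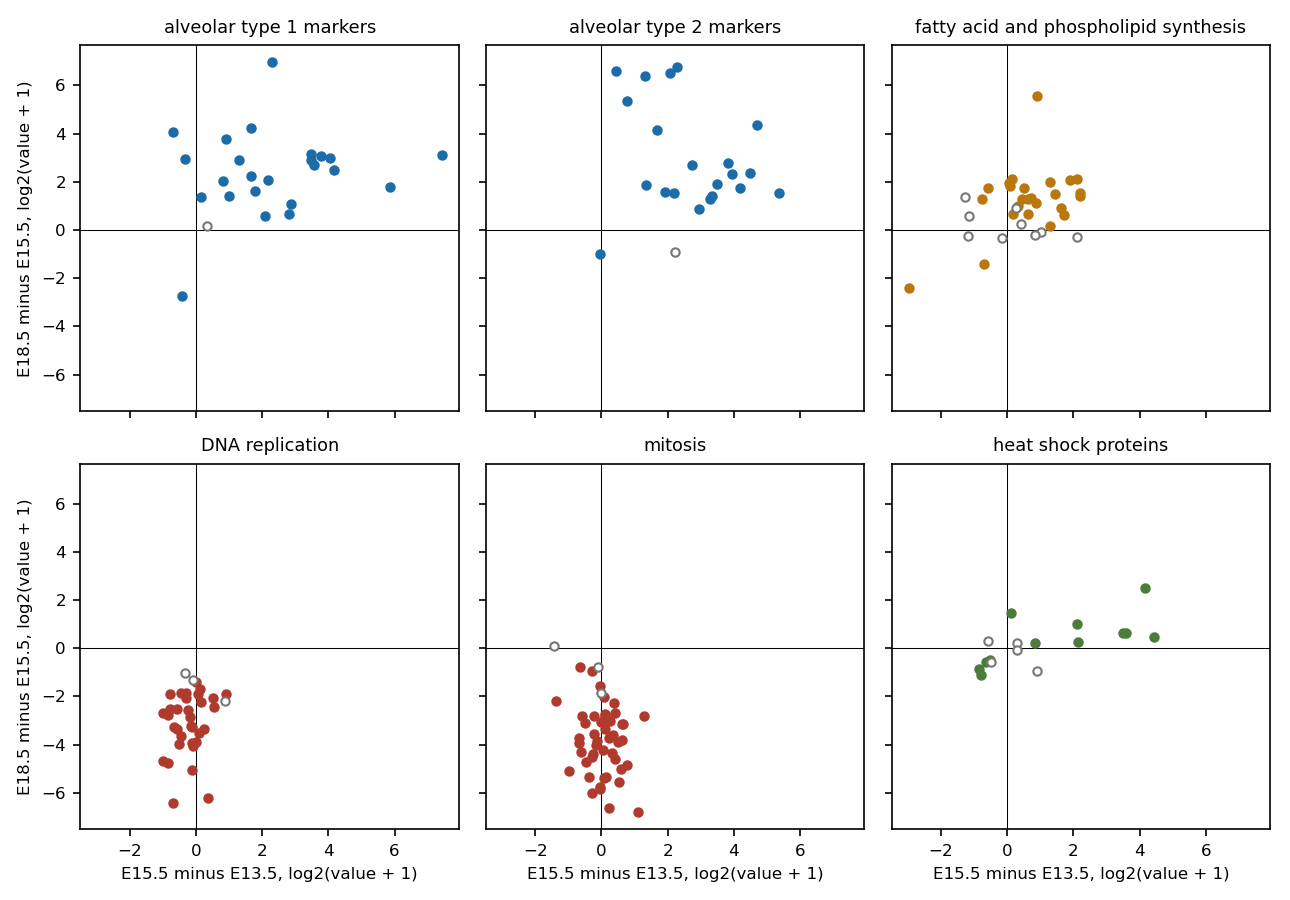
Change of each tested gene from E13.5 to E15.5 (x axis) and from E15.5 to E18.5 (y axis), both on the log2(value + 1) scale, in 6 lists, where filled points are genes called between E18.5 and the early mean and open points are not. Division genes lie on the vertical axis below 0, alveolar markers spread over the upper right, and the heat shock genes that rose lie mainly along the horizontal axis.

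Imprinted genes, many of which promote fetal growth, fell in 11 of 24 and rose in 5. H19, a non-coding RNA (chr7:142575529-142578143), stood at 5921, 9692, 397 and 349.6, a log2 change of -4.34 ± 0.20 (adjusted p = 2.19e-05), with its highest value at E15.5. Its neighbour Igf2 (chr7:142650766-142666816) stood at 292, 393, 37.0 and 57.6, and Mest at 367, 457, 69.3 and 53.1. Grb10 stood at 352, 166, 51.6 and 42.6, with part of its fall at E15.5. The risers were Gnas and 4 genes of the Dlk1 and Meg3 cluster. Meg3 (chr12:109541001-109571726) stood at 265, 497, 1704 and 1871 (log2 change 2.30 ± 0.18, adjusted p = 0.000197), Rian at 698, 1227, 2851 and 3295, Mirg at 3.54, 3.95, 23.9 and 24.5 and Dlk1 at 27.2, 64.6, 183 and 165. At the first step limma and edgeR called 0 imprinted genes, although 8 had an unadjusted p under 0.05, 4 of them in each direction. Fetal RNA-binding proteins and let-7 targets fell in 5 of 12 and rose in none, and of the 5 HOX and related homeobox genes tested, of 20 in the list, limma called 3 lower and edgeR 1. In the insulin-like growth factor list 2 of 12 rose and 4 fell, and Igfbp7 rose with 0.473, 25.1, 105 and 108 and Igfbp5 fell with 179, 116, 19.6 and 18.1.

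In the EGF list 6 of 12 rose and none fell. Errfi1, a feedback inhibitor of the receptor, stood at 31.4, 49.2, 175 and 171, and Egfr at 9.92, 15.1, 53.9 and 40.7. The ligand gene Btc stood at 2.36, 22.96, 17.3 and 18.1, highest at E15.5, and against E15.5 alone its log2 change was −0.36. In the Wnt list 3 of 27 rose and 4 fell (11.1% and 14.8%, near the shares of all genes). Wnt3a (chr11:59248033-59290752) stood at 0, 2.87, 102 and 160.1, a log2 change of 6.04 ± 0.38 (adjusted p = 8.91e-05), and the feedback gene Nkd1 at 11.1, 21.2, 107 and 153, while Wnt7b fell with 34.0, 18.7, 4.24 and 9.42. Axin2, a common reporter of the pathway, was not called, with 14.9, 16.1, 20.4 and 12.1 (adjusted p = 0.977). In the FGF list 4 of 17 rose and 4 fell (23.5% each), with Fgfr1 at 80.6, 37.7, 5.005 and 14.3 and Fgfbp1 at 1.65, 8.61, 54.7 and 42.6. The early feedback genes Spry2 (29.3, 30.5, 21.9 and 23.4, adjusted p = 0.257) and Dusp6 (79.4, 118, 83.9 and 101, adjusted p = 0.823) were not called.

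In the BMP and TGF-beta list 4 of 29 rose and 2 fell, near the background. Fstl1, a secreted glycoprotein, was at its late level by E15.5, with 1679, 5801, 5567 and 5538, and against E15.5 alone its log2 change was −0.06. In the Notch list 4 of 16 rose and 4 fell. The ligand gene Jag2 stood at 7.33, 33.7, 91.6 and 85.1, and the feedback gene Nrarp, which fell, was highest at E15.5 with 13.9, 38.4, 5.005 and 8.29. In the Yap and Taz list 7 of 24 rose and 2 fell. The target gene Ctgf rose with 206, 345, 793 and 900.5 while Ankrd1, another target, fell with 55.8, 3.59, 0 and 0.377. Ankrd1 had passed by E15.5 (adjusted p = 0.0319). The partner gene Tead2 fell with 63.1, 33.7, 1.16 and 2.26, Tead4 rose with 2.60, 4.31, 24.6 and 18.8, and Wwtr1, which encodes Taz, rose with 14.18, 27.3, 85.1 and 90.4. Of 13 retinoid genes 2 rose and 3 fell (15.4% and 23.1%). Of 9 Hedgehog genes Gli3 alone was called, lower (11.1%), and Shh was not, with 825, 844, 672 and 793 (adjusted p = 0.534).

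In the tight junction list 6 of 17 rose and 3 fell. Cldn6 stood at 553, 94.4, 11.2 and 3.01, a log2 change of -5.04 ± 0.54 (adjusted p = 0.000767), and Cldn4 at 50.1, 40.2, 117 and 164, rising after E15.5. In the adhesion list 10 of 21 rose and 5 fell. Epcam, the surface protein used to sort the cells, fell modestly with 152, 213, 85.1 and 55.8 (adjusted p = 0.0203), while E-cadherin, Cdh1, rose with 104, 172, 255 and 286. Keratins rose in 5 of 7, with Krt7 at 1634, 3323, 11315 and 15794 and Krt19 at 1392, 2037, 7505 and 8092, mainly after E15.5. Basement membrane and integrin genes rose in 16 of 29 and fell in 4. The collagen IV chains Col4a1 (389, 550.1, 1477 and 1610) and Col4a2 (519, 802, 2481 and 2956) were mostly late, and Col4a3 (0.473, 15.4, 135 and 152) was midway at E15.5. The integrin ligand gene Npnt stood at 38.5, 178, 533 and 692. Lama1, an early laminin chain, fell with 32.8, 1.44, 0 and 0 and had passed by E15.5 (adjusted p = 0.0410).

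Of 14 microtubule genes 6 fell and none rose, with Tubb5 at 271, 182, 12.7 and 12.8 and the depolymerising factor gene Stmn1 at 242, 132, 9.24 and 11.3. Tuba1a, Tuba1b and Tuba1c, which are close copies, all fell. Actin cytoskeleton genes rose in 13 of 36 and fell in 4. The annexin gene Anxa3 stood at 3.78, 46.6, 624 and 521, the membrane linker gene Msn at 56.7, 93.3, 373 and 463, and the embryonic myosin gene Myh10 fell with 497, 257, 70.1 and 59.5.

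Stress genes were well along at E15.5. Of 18 immediate early genes 14 rose and none fell, and 9 had passed between E13.5 and E15.5. Fos stood at 179, 1295, 4232 and 4068, Egr1 at 20.1, 166, 198 and 201 and Fosb at 72.1, 338, 477 and 571. Egr1 and Fosb did not pass after E15.5 (adjusted p = 0.520 and adjusted p = 0.123), and Fos did (adjusted p = 0.00324). Of 17 heat shock genes 8 rose and 4 fell, and the risers had a median place of 0.824. Hspb1, a small heat shock protein, stood at 232, 5039, 7627 and 6498, a change of 4.44 ± 0.25 between E13.5 and E15.5 (adjusted p = 0.000355) and of 0.48 ± 0.22 afterwards (adjusted p = 0.201). Hspa1a stood at 328, 3753, 4580 and 7581 and its near-identical copy Hspa1b at 323, 3884, 4814 and 7473. The members that fell were Hspa9, Hspa4, Hsp90ab1 and the mitochondrial chaperonin gene Hspd1, with 224, 129.5, 72.4 and 49.4. These genes also respond to tissue digestion, which the labels describe in the same terms for every stage, and its part in the difference was not tested.

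Genes for oxidant and foreign compound handling rose in part. Of 28 antioxidant genes 10 rose and 5 fell. Gpx4, the lipid peroxidase, stood at 1027, 1429, 4460 and 4511, Gclc, of glutathione synthesis, at 13, 23.3, 99.7 and 87.8, and Gpx1 at 49.2, 42.0, 161 and 151, each with a second step that passed and a first that did not. Prdx6, which also handles surfactant phospholipid, was lowest at E15.5 with 48.9, 25.5, 116 and 113. Of 16 xenobiotic genes 11 rose and none fell, among them Ces1d with 7.09, 26.6, 73.9 and 91.2 and Aldh3a1, at 0 reads in both early libraries, with 0, 0, 10.4 and 9.04.

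In complement and innate defence 16 of 24 rose and 1 fell, and 12 were higher between E15.5 and E18.5. C3, the central complement protein, was lowest at E15.5 and then rose, with 14.9, 0.359, 42.7 and 52.7, and both steps passed (adjusted p = 0.00259 down and adjusted p = 0.000245 up). Cfi, the complement inhibitor, was the faller, with 134, 53.1, 1.93 and 2.64. MHC class I genes rose in 6 of 15, with the transporter gene Tap2 at 0, 14.4, 32.3 and 24.1 and H2-K1 at 2.60, 5.74, 30.4 and 54.6. Of 8 class II genes Cd74 was the single riser (12.5%, against 15.8% of all genes), with 0.473, 2.87, 6.93 and 4.90. Interferon-stimulated genes were mixed, with 8 of 18 up, such as Irf7 at 0.236, 0, 7.32 and 7.54, and 3 down. The 3 were Ifitm1, Ifitm2 and Ifitm3, and Ifitm3 stood at 192, 146, 80.8 and 49.7.

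**Figure D4:**
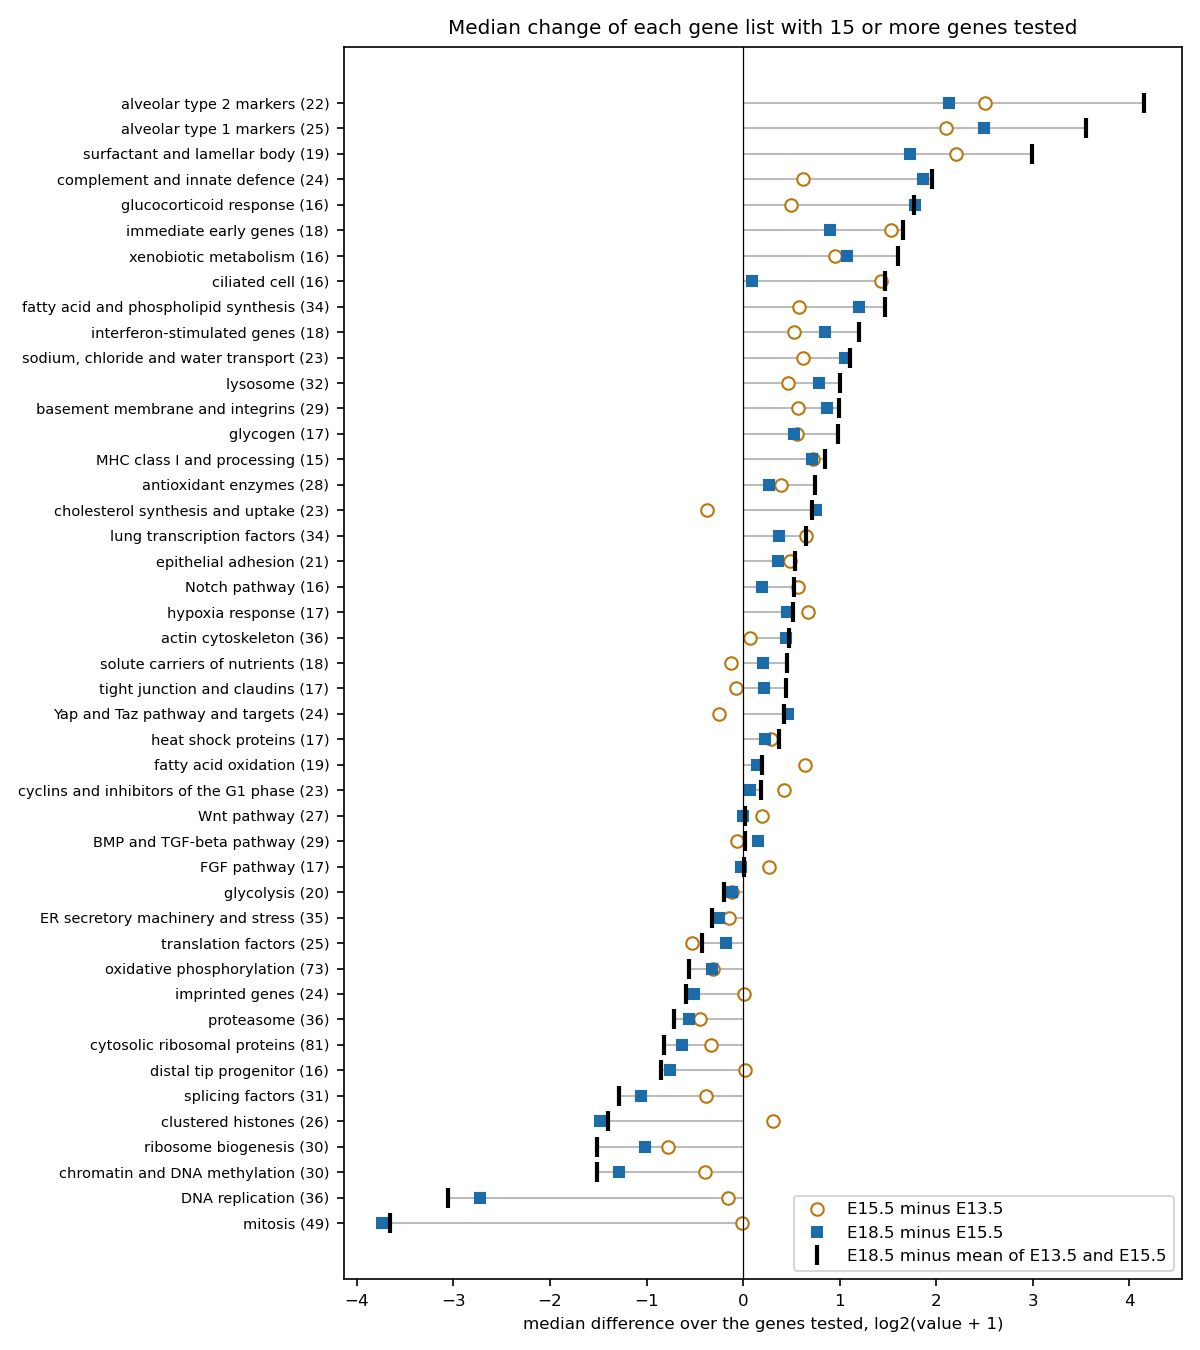
Median change over the tested genes of each list with 15 or more (x axis, log2(value + 1) scale), with the number of genes in brackets, where circles are E15.5 minus E13.5, squares E18.5 minus E15.5, and bars E18.5 minus the early mean. Mitosis and DNA replication have circles near 0 and squares far to the left, whereas the alveolar lists have circles and squares at similar distances to the right.

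Some genes were most of the way at E15.5, with a place of 0.75 or more. With a change of at least 2 on the log2 scale and a stage mean of at least 100, the risers included Atp6v0a4, a proton pump subunit, with 0, 226, 1128 and 943, Clic3 with 8.03, 519.6, 1956 and 1666, the cyclooxygenase gene Ptgs1 with 6.38, 145, 356 and 314, and the collagen crosslinker Lox with 8.03, 166, 194 and 261. The first step of all 4 passed, and that after E15.5 passed for all but Lox (adjusted p = 0.499). Among the 30 fallers with such a place, 3 also changed by at least 2 on the log2 scale from E13.5 to E18.5, had a stage mean of at least 100 and had E18.5 outside the range of the earlier libraries. They were the actin scaffold gene Palld (103, 10.05, 7.70 and 7.54), the transcription activator Camta1 (108, 19.02, 16.2 and 16.2) and the phosphatase gene Ptprj (277, 70.3, 65.8 and 55.4). Their E15.5 values were close to those at E18.5, and the first step passed for Camta1 and Ptprj but not for Palld (adjusted p = 0.0506). At the other end, Pon1, an arylesterase, was at 0 reads in both early libraries, and Spink5, a protease inhibitor, stood at 0, 0.359, 141 and 155 and Ppl, a desmosomal plakin, at 15.8, 19.7, 140.1 and 136.

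Other genes peaked or dipped at E15.5, outside the range of the E13.5 and E18.5 libraries. Among genes with a stage mean of at least 100, the farthest above were Cntln, a centriole protein gene, with 36.2, 101, 17.3 and 26, and Pkdcc, a secreted kinase gene, with 130.4, 341, 55.4 and 64.8. Psrc1, a spindle protein gene, stood at 147, 325, 8.47 and 12.8. For these 3 the first step did not pass the test (adjusted p = 0.142, adjusted p = 0.211 and adjusted p = 0.322). Under the same limit the farthest below was Rabac1, a Rab acceptor (chr7:24969752-24972754), with 407, 6.82, 38.1 and 41.1, a change of -5.70 ± 0.28 between E13.5 and E15.5 (adjusted p = 0.000173). The amino acid transporter partners Slc7a5 and Slc3a2 were both lowest at E15.5, with 121, 48.4, 119 and 105 and 586, 330.5, 558 and 567, and neither passed at the first step (adjusted p = 0.0908 and adjusted p = 0.248). Bik, a death-promoting gene, stood at 215, 36.6, 87.4 and 76.9. Each of these peaks and dips rests on the single E15.5 library.

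Apart from Vim, markers of cells that the sort should remove were mostly low, and their part in the changes above was not tested. The immune gene Ptprc, which encodes CD45, had 0 reads in all 4 libraries. The 12 endothelial markers together took from 0.00590% to 0.0110% of reads, most of it at E18.5 from Esam, with 13.7, 11.1, 92.8 and 101, and the 10 listed erythroid genes at most 0.00463%. The 19 mesenchymal markers summed to 2679.73 at E13.5, 1443.87 at E15.5 and 376.53 and 397.86 at E18.5. Vim made up most of that, with 2564, 1193, 110.1 and 135, and the defining marker Pdgfra had at most 2 reads in a library. Of the 12 mesenchymal markers tested, 3 rose, 3 fell and 6 were not called, with a median log2 change of 0.48. Their median change was 1.124 from E13.5 to E15.5 and 0.06 from E15.5 to E18.5. Col3a1 stood at 7.80, 77.1, 35.0 and 38.8, highest at E15.5. The mesothelial list holds the epithelial genes Krt19 and Msln, and Wt1 and Upk3b, its defining genes, had 0 reads at E18.5. All 8 of its genes, these included, had reads in the single E15.5 library, while 4 had none at E13.5 and 5 had none in each E18.5 library. Of the neural list 1 gene was tested and not called, and in the liver and gut list the transferrin gene Trf rose.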

How the data were processed

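Polyadenylated RNA from sorted Epcam-positive lung cells of mice was read as 3' tags in 7 libraries, of which the 4 fetal ones are described. The mm10 build, Bowtie2 2.2.5 and R 3.4.0 are named in the submitters' processing notes. The deposited signal values are tag counts that the authors divided by 1 factor per library, since every value is a whole multiple of the value of 1 read. log2(value + 1) was fitted over all 7 libraries by stage with limma 3.58.1 (trend, robust), after edgeR's filter by expression, with Benjamini-Hochberg adjustment over the 12964 genes tested. Stages with 1 library take their error from the E18.5 and P56 pairs, which leaves 2 residual degrees of freedom, so p-values measure only the spread between those libraries. edgeR 4.0.16 on the recovered counts and DESeq2 1.42.0 were alternatives. On simulated data with 12025 genes, for E18.5 against the early mean, limma found 36.1% of the genes changed 2-fold. It found 79.7% of those changed 4-fold and 95.7% of those changed 8-fold, and 5.88% of its calls were false. There, 61, 69 and 70 genes were changed 2-fold, 4-fold and 8-fold, and each other gene had the same mean in every library. The spread was assumed and not taken from these replicates. These rates therefore do not measure the error of the calls reported here.

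Genes named were the largest changes, those most or least complete at E15.5, those farthest outside the range of E13.5 and E18.5 at E15.5, the members of each list with the smallest adjusted p, and members a reader would look for first. The comparison, members and lists were chosen with earlier results of these data known. Promoters came from RefSeq and gene coordinates from GENCODE vM21. Some items are not reported here.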

Additional observations from a re-analysis of the deposited data

How the results depend on the processing

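Of 336 named genes called between E18.5 and the early mean, 336 kept direction and call under TMM scaling and under DESeq2 size factors, 332 under edgeR, 294 under DESeq2 and 220 without a filter on low values. Scaling without Eef1a1 and the ribosomal proteins, an alternative chosen after seeing the data, lowered the median change of all genes by 0.194 for E18.5 against the early mean and by 0.207 for E18.5 against E15.5. Under it 1622 genes were higher and 2458 lower than the early mean, against 2043 and 1736, and 589 were higher and 905 lower than at E15.5, against 785 and 581. Without a filter on low values the counts were 1352 higher than the early mean, 931 higher and 908 lower at E15.5 than at E13.5, and 1177 lower at E18.5 than at E15.5. A pseudocount of 4 gave 164 and 47 for E15.5 against E13.5, and a mean of at least 10 gave 42 lower. Without robust variance 84 genes were higher at E15.5 than at E13.5, and 411 were higher and 334 lower at E18.5 than at E15.5. DESeq2 called 1002 genes lower than the early mean, and edgeR 62 lower at E15.5 than at E13.5. By place, the share of rising genes that had moved the other way was 1.70% at a pseudocount of 4 and 1.57% at a mean of at least 50. For falling genes it was 4.23% and 1.01%, and 3.29% were mostly changed at a pseudocount of 4. The causes were not tested.

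The fit to the 4 fetal libraries alone leaves 1 residual degree of freedom, and limma called 0 genes in any comparison, with 2092 higher and 1675 lower than the early mean at an unadjusted p under 0.05. edgeR on the same libraries called 1939 and 1723 there, 453 higher and 73 lower at E15.5 than at E13.5, and 727 higher and 889 lower at E18.5 than at E15.5. Leaving out 1 library, limma called from 0 to 2116 genes higher and from 0 to 1758 lower than the early mean, from 0 to 295 higher and from 0 to 27 lower at E15.5 than at E13.5, and from 0 to 959 higher and from 0 to 644 lower at E18.5 than at E15.5. The counts of 0 came without either E18.5 or either P56 library, which again leaves 1 residual degree of freedom. Without E13.5, 959 and 644 genes passed against E15.5 alone, and the changes of Btc (−0.358) and Fstl1 (−0.063) turned negative, against 2.475 and 1.725 without E15.5. With edgeR the first step gave 848 higher and 310 lower genes without E18.5 replicate 1, 845 and 307 without replicate 2, 48 lower without P56 replicate 1, and 508 and 83 without P56 replicate 2. The second step gave 1343 and 1346 without E18.5 replicate 1 and 1059 lower without replicate 2.

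E18.5 and P56 share replicate numbers, and their differences between replicates did not move together across genes (r = 0.0098). The labels do not say whether libraries with the same number were handled together. This correlation cannot settle it, since noise or an effect that differs by stage would also leave it low. With the replicate block 1121 genes were higher and 772 lower than the early mean, 63 higher and 3 lower at E15.5 than at E13.5, and 129 higher and 77 lower at E18.5 than at E15.5.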
